A study of Mus musculus with 4 samples.

Results

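The genes of the TGF-β ligands and of the proteins that hold these ligands latent were examined in mouse lung carrying 4T1 tumor, in 2 saline and 2 ADC/cmLumiOpto samples. The set was chosen by name, with earlier results of these data known, and holds 10 of the 56748 genes listed. It contains the TGF-β ligand genes Tgfb1, Tgfb2 and Tgfb3, the activin subunit gene Inhba, the latent TGF-β binding protein (LTBP) genes Ltbp1, Ltbp2, Ltbp3 and Ltbp4, and Lrrc32 and Nrros, whose membrane proteins GARP and LRRC33 tether latent TGF-β to the cell surface. All 10 passed the filter on low counts.

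4T1 is a mouse triple-negative breast cancer line from the BALB/c strain, and the study's methods describe female BALB/cJ mice, 7 weeks of age, given luciferase-expressing 4T1-FLuc cells through the tail vein. The treated mice received an antibody-drug conjugate (ADC), an anti-CD276 antibody carrying the microtubule inhibitor mertansine (DM1), together with cmLumiOpto, a virus packed in exosomes that encodes a light-gated channel for the inner mitochondrial membrane and is driven by the luminescent substrate ViviRen. The control mice carried the same tumor cells and received saline, which the sample titles name and other labels call PBS. For the treated samples the titles read cmLumi-ADC16mg, and other labels give the name cmLumi-Olap. The labels thus give 16 mg/kg of the conjugate, whereas the methods give 8 mg/kg. Whether labels and methods mean the same treatment is not settled by the sources used here. The labels also describe tumor cells recovered from the lungs after 3 weeks, while the methods describe dissociated lung tissue.

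The samples held from 15263375 to 19675436 counts in total. Levels are in CPM, counts scaled to the TMM-normalized library size, and the floor of 3 counts, for counting error only, was between 0.146 and 0.202 CPM. Genes listed as markers of carcinoma and of lung were both present. The summed level of 6 keratin and adhesion genes listed for carcinoma, not shown to be specific to it, was between 2846 and 3310 CPM in the 4 samples. The 5 alveolar markers summed to 1536 and 318.2 CPM in the saline samples and to 5640 and 4761 CPM in the ADC/cmLumiOpto samples, and saline sample 2 was lowest for these and for the airway markers. The 4 neutrophil markers summed to 7663 CPM in ADC/cmLumiOpto sample 2 and to between 442.9 and 1103 CPM in the other samples. None of the 15320 genes tested passed edgeR's quasi-likelihood test at an adjusted threshold of 0.05 (0.0% called, smallest adjusted p = 0.116), while 3553 had an unadjusted p under 0.05.

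TGF-β is secreted in a latent form in which its own propeptide stays wrapped around the mature dimer. In the matrix this complex is held by an LTBP, which is anchored to fibronectin and fibrillin fibers, and on certain immune cells and platelets it is held by a membrane protein instead. Integrins that pull on the propeptide, or proteases that cut it, free the ligand, which then binds a pair of receptor kinases that phosphorylate SMAD2 and SMAD3. In lung and in breast tumors the pathway is known for matrix deposition, epithelial-mesenchymal transition and restraint of immune cells. Activin, a dimer of the Inhba product, signals through related receptors to the same SMAD proteins without an LTBP.

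The table lists Tgfb1 (ENSMUSG00000002603) on chromosome 7 at 25386427 to 25404502, Tgfb2 (ENSMUSG00000039239) on chromosome 1 at 186354989 to 186438186 and Tgfb3 (ENSMUSG00000021253) on chromosome 12 at 86103519 to 86125815. Inhba (ENSMUSG00000041324) is listed on chromosome 13 at 16186436 to 16206206. The LTBP genes lie on 4 chromosomes: Ltbp1 (ENSMUSG00000001870) on chromosome 17 at 75312563 to 75699507, Ltbp2 (ENSMUSG00000002020) on chromosome 12 at 84829986 to 84923306, Ltbp3 (ENSMUSG00000024940) on chromosome 19 at 5790932 to 5808560 and Ltbp4 (ENSMUSG00000040488) on chromosome 7 at 27004561 to 27037117. Lrrc32 (ENSMUSG00000090958) is listed on chromosome 7 at 98138490 to 98151388, and Nrros (ENSMUSG00000052384) on chromosome 16 at 31961603 to 31984412. These positions are as in the table, for which the submitters' processing notes name mm39, and none of the 10 equals the position in the GRCm38 annotation that the methods name.

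The promoters of 4 members are shown because 3 of them (Tgfb2, Inhba and Ltbp4) had the smallest p values among the members that were lower after treatment, and Nrros was the member that was higher. Each sequence is the 250 bases before the annotated start in RefSeq (GRCm38.p6), written 5′ to 3′ on the strand of the gene. Capitals mark matches to motifs searched on both strands: CAGAC, a SMAD binding element, TGANTCA, the AP-1 element, TATAAA, the TATA box, and GAGGAA, the core of a PU.1 site.
Tgfb2, chr1:186705990-186706239 (- strand): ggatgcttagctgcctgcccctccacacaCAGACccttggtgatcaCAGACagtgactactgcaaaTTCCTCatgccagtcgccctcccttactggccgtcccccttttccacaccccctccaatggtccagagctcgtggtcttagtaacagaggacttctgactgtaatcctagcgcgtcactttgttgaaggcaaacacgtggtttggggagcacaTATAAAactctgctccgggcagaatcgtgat
Inhba, chr13:16011601-16011850 (+ strand): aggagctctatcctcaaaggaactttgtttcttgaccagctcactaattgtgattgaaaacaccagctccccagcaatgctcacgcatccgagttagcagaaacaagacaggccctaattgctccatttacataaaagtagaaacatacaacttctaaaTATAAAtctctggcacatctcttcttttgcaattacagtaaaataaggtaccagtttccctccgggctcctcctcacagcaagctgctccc
Ltbp4, chr7:27337613-27337862 (- strand): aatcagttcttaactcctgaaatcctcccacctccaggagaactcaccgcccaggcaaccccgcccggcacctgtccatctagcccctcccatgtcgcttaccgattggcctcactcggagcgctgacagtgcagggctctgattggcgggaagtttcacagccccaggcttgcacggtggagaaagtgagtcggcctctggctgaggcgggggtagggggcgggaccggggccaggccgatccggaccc
Nrros, chr16:32165595-32165844 (- strand): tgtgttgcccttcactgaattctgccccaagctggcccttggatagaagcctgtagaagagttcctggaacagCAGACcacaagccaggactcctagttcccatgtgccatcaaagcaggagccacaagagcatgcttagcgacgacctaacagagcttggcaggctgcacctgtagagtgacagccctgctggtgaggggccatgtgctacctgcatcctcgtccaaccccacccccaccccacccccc

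Motifs were counted in windows of 300 bases (250 before and 50 after the start), of which RefSeq gave 11 for 8 of the members and none for Tgfb3 and Lrrc32. The Tgfb2 window held 2 copies of CAGAC, at 221 and 204 bases before the start, and TATAAA at 31 bases before it. Inhba had TATAAA at 91 bases before its start and no other match. The 3 windows of Ltbp4 held no match, and the Nrros window held 1 copy of CAGAC, at 177 bases before the start. CAGAC occurred in 6 of the 11 windows, those of 5 members, and in 49.6% of the 32851 windows of all genes. TATAAA was in 2 of the 11 windows against 13.6% of all windows, GAGGAA in 2 against 28.3% and TGANTCA in 1 (Ltbp3, where it overlaps a CAGAC match) against 7.81%. A match is a match of letters only.

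Of the 10 members, 9 were lower after ADC/cmLumiOpto and Nrros was higher, and none passed the adjusted threshold. The median log2 fold change of the members was -0.45, against 0.03 over all 15320 genes tested. In 7 members both treated samples were below both saline samples, an order found in 28.8% of all genes tested, and in 1 member, Nrros, both were above, as in 28.1% of all genes. An unadjusted p under 0.05 was found for 5 lower members (Tgfb2, Inhba, Ltbp1, Ltbp3 and Ltbp4), against 12.2% of all genes in that direction, and for 1 higher member, against 11.0% (23.2% of all genes in either direction). With edgeR's exact test, which called 7.64% of all genes at an adjusted p of 0.05, Tgfb2, Inhba, Ltbp4 and Nrros passed. DESeq2, which called 9.99% of the 13537 genes it gave an adjusted p, passed these 4 and Ltbp1. In bulk samples fewer cells of a type and less RNA per cell cannot be told apart.

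**Figure D1:**
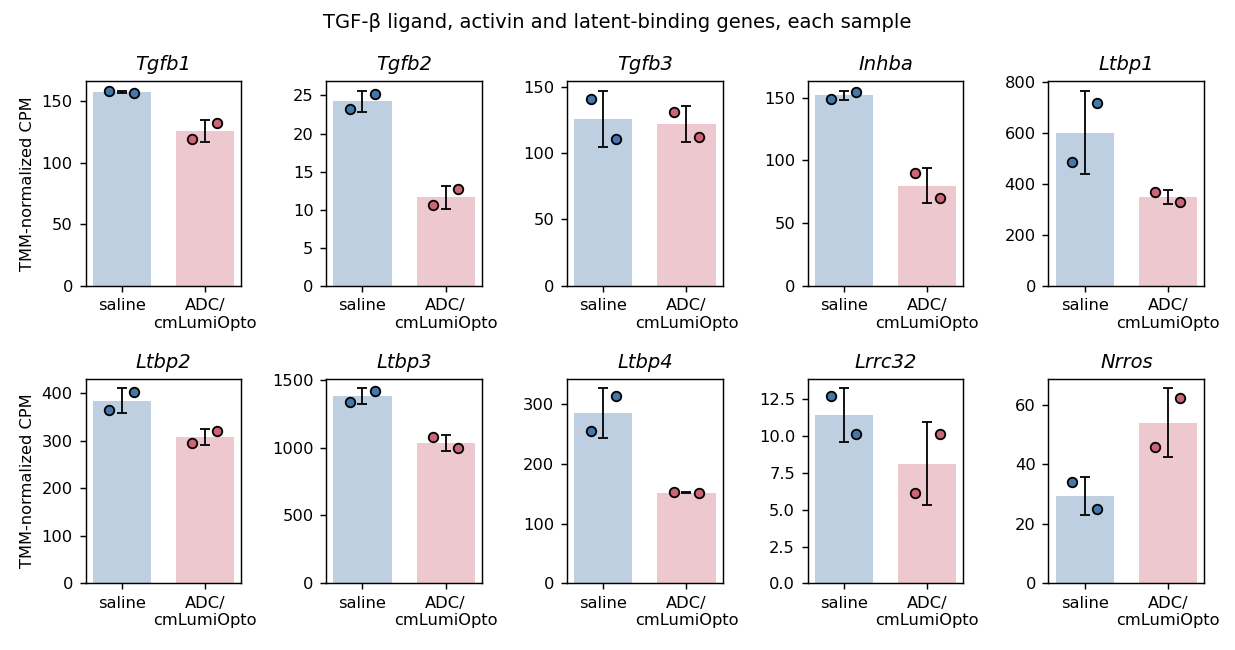
TMM-normalized CPM of each of the 10 genes, one panel per gene with its own axis from 0, for the saline (blue) and ADC/cmLumiOpto (red) groups; points are samples, bars are means and error bars are the SD of 2 samples. Tgfb2, Inhba, Ltbp4 and Ltbp1 are lower in both treated samples, Tgfb3 and Lrrc32 overlap between groups, and Nrros is higher in both treated samples.

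Among the ligand genes, Tgfb2 differed most between the groups. Tgfb2, which encodes the isoform with prominent roles in heart, eye and palate development, was at 23.26 and 25.21 CPM in the saline samples and at 10.54 and 12.68 CPM in the ADC/cmLumiOpto samples. The groups did not overlap, and both treated samples were near the same level. The group values were 24.23 ± 1.38 CPM (SD, n = 2) in saline and 11.61 ± 1.51 CPM (SD, n = 2) after treatment, a ratio of 0.48. The log2 fold change was -1.06 with a standard error of 0.22 (adjusted p = 0.116 in edgeR's quasi-likelihood test), on counts of 186 to 374. With any 1 sample left out it lay between -1.20 and -0.93.

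Tgfb1, the main isoform of immune cells, platelets and many carcinomas, was at 158.2 and 156.9 CPM in saline and at 119.5 and 132.3 CPM after treatment. Both treated samples were below both saline samples. The saline mean of 157.6 ± 0.927 CPM (SD, n = 2) and the treated mean of 125.9 ± 9.07 CPM (SD, n = 2) gave a ratio of 0.80 that did not pass the test (log2 fold change -0.32, standard error 0.16, adjusted p = 0.267 in edgeR). Tgfb3, known from palate and lung development, was at 140.7 and 110.9 CPM in saline and at 131.2 and 112 CPM after treatment. Here the groups overlapped, with the lowest value in a saline sample. Its means of 125.8 ± 21 CPM (SD, n = 2) and 121.6 ± 13.6 CPM (SD, n = 2) differed by less than the spread between replicates (log2 fold change -0.05, standard error 0.19, adjusted p = 0.90 in edgeR), and the sign turned to 0.04 with upper-quartile scaling, to 0.13 without saline sample 1 and to 0.06 without ADC/cmLumiOpto sample 2.

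Tgfb3 overlaps Ttll5 on the opposite strand. The sources used here do not settle whether reads were counted by strand, so that reads of the pair may not be told apart. Ttll5 had between 733 and 1045 counts, and Tgfb3 between 1646 and 2315.

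Per kilobase of gene model, Tgfb3 and Tgfb1 made up most of the summed ligand level in every sample. Tgfb3 took 54.0% and 48.0% of the sum in saline and 60.3% and 53.8% after treatment. Tgfb1 took 40.8% and 45.6% in saline and 36.9% and 42.7% after treatment. Both shares overlapped between the groups. The share of Tgfb2 did not overlap, at 5.22% and 6.38% in saline and 2.83% and 3.56% after treatment, and the summed level of the ligand genes was 76.98 and 68.27 CPM per kilobase in saline and 64.31 and 61.54 after treatment. For 2 samples in each group the smallest two-sided p of an exact permutation test is 0.333, so the shares are given without a test.

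**Figure D2:**
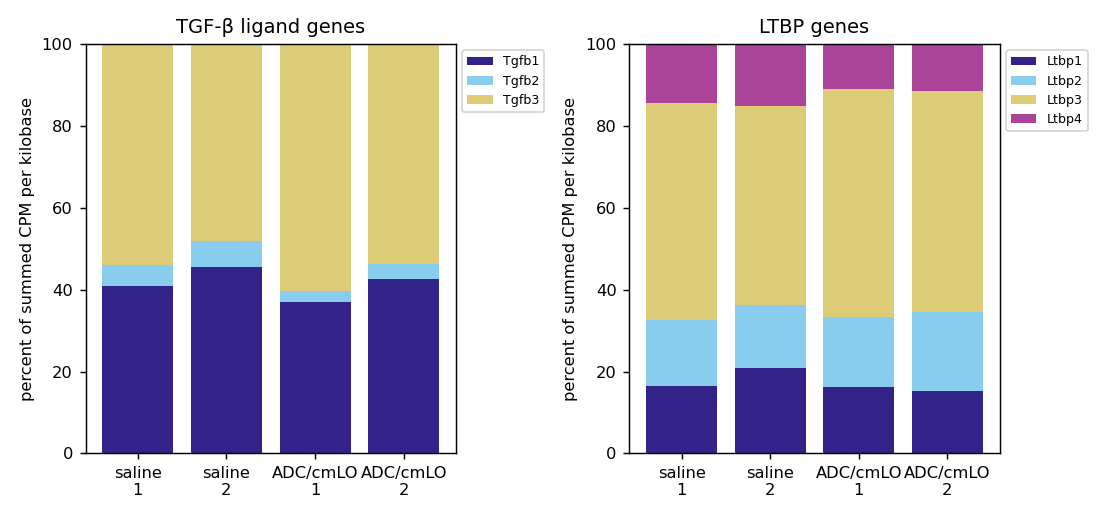
Share of each gene in the summed CPM per kilobase of the 3 TGF-β ligand genes (left) and the 4 LTBP genes (right), in percent from 0 to 100, one bar per sample. Tgfb3 and Tgfb1 fill most of each ligand bar and Ltbp3 about as much of each LTBP bar as the other 3 genes together, and the Tgfb2 and Ltbp4 shares are smaller in both treated samples.

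Inhba, the gene of the βA subunit of activin A, stood at 149.2 and 154.4 CPM in saline and at 89.55 and 69.78 CPM after treatment. The saline values were close to each other, and both treated values were well below them. The means were 151.8 ± 3.67 CPM (SD, n = 2) and 79.66 ± 14 CPM (SD, n = 2), a ratio of 0.52. The log2 fold change of -0.93 with a standard error of 0.18 (adjusted p = 0.116 in edgeR's quasi-likelihood test) lay between -1.11 and -0.76 with any 1 sample left out. A pseudogene on the opposite strand within Inhba, B230303A05Rik, had between 3 and 71 counts, against 1431 to 2386 for Inhba.

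All 4 LTBP genes were lower in both treated samples than in both saline samples, an order found in 28.8% of all genes tested. Ltbp4, whose protein is needed for elastic fibers in the lung and binds mainly latent TGF-β1, had the smallest p of the 10 members. It was at 255.5 and 314.4 CPM in saline and at 153.1 and 151.1 CPM after treatment. The treated samples were nearly equal. The means were 285 ± 41.7 CPM (SD, n = 2) and 152.1 ± 1.38 CPM (SD, n = 2), a ratio of 0.53 and a log2 fold change of -0.91 with a standard error of 0.17 (adjusted p = 0.116 in edgeR), which lay between -1.05 and -0.73 with any 1 sample left out.

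Ltbp1, which carries latent TGF-β into fibronectin and fibrillin networks, was at 486.2 and 718.7 CPM in saline and at 368.3 and 328.4 CPM after treatment. Saline sample 2 was far above the other 3. The group values of 602.4 ± 164 CPM (SD, n = 2) and 348.3 ± 28.2 CPM (SD, n = 2) gave a log2 fold change of -0.79 with a standard error of 0.22 (adjusted p = 0.132 in edgeR). Without saline sample 2 the log2 fold change was -0.47, and its unadjusted p in edgeR went from 0.0107 to 0.14.

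Ltbp3, a latent TGF-β binding protein known from bone and tooth development, had the highest level of the family, at 1338 and 1418 CPM in saline and 1077 and 993.4 CPM after treatment. The groups were separate, with a gap wider than the distance within either group. The means were 1378 ± 56.7 CPM (SD, n = 2) and 1035 ± 59.2 CPM (SD, n = 2), a ratio of 0.75 (log2 fold change -0.41, standard error 0.16, adjusted p = 0.198 in edgeR). Ltbp2 is the member of the family that does not bind latent TGF-β and serves in elastic fibers and the eye. It was at 365.8 and 402.5 CPM in saline and 296.1 and 320.2 CPM after treatment. These groups were also separate, but the difference was smaller (384.2 ± 26 against 308.2 ± 17.1 CPM, SD, n = 2 each; log2 fold change -0.32, standard error 0.16, adjusted p = 0.273 in edgeR).

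The LTBP genes have long transcripts, and the fold changes of all genes tested went with gene length (Spearman rho = -0.34 across 15320 genes, which are not independent replicates). The member gene models ranged from 3383 to 10691 bases, 9 of them longer than the median of 4113 bases. When the trend with length was removed from each sample, the log2 fold changes were -0.51 for Ltbp1, -0.11 for Ltbp2 and -0.18 for Ltbp3, each smaller by over 1.5 times, and -0.77 for Ltbp4, -0.96 for Tgfb2, -0.79 for Inhba and 0.88 for Nrros. The latter 4 kept an unadjusted p under 0.05 in edgeR, and Ltbp1 and Ltbp3 did not.

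**Figure D3:**
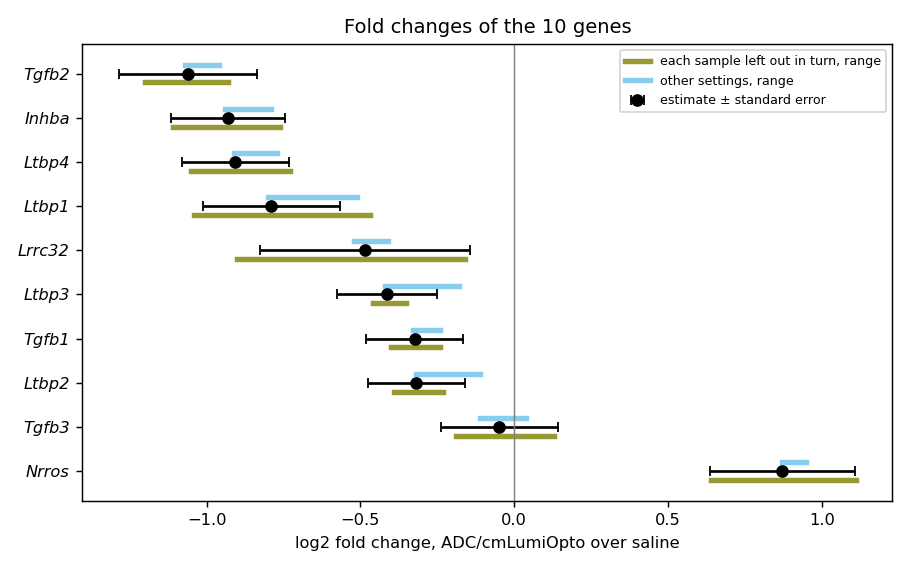
Log2 fold change (ADC/cmLumiOpto over saline) of the 10 genes from edgeR, with the standard error as black bars, the range over other processing settings in light blue and the range with each of the 4 samples left out in olive. The ranges of Tgfb2, Inhba, Ltbp4 and Ltbp1 lie below 0, those of Nrros above 0, and those of Tgfb3 span 0.

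Within the LTBP family the order per kilobase was led by Ltbp3 in every sample, at 53.2% and 48.7% of the summed level in saline and 55.7% and 54.0% after treatment. The share of Ltbp4 was 14.3% and 15.1% in saline and 11.1% and 11.5% after treatment, with no overlap. Ltbp2 had 16.1% and 15.3% in saline against 17.0% and 19.3%, the opposite order, again without overlap, and Ltbp1 had 16.4% and 20.9% against 16.2% and 15.2%. The sum over the family was 277.2 and 321.5 CPM per kilobase in saline and 213.1 and 202.7 after treatment.

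The membrane anchors were the least abundant of the latent-binding genes per kilobase, and Nrros was higher and Lrrc32 lower after treatment. Nrros, whose protein LRRC33 is found on macrophages, microglia and other myeloid cells, was at 34.01 and 24.94 CPM in saline and at 45.85 and 62.08 CPM after treatment. Both treated samples were above both saline samples, with ADC/cmLumiOpto sample 2 highest and saline sample 2 lowest. The means of 29.47 ± 6.41 CPM (SD, n = 2) and 53.96 ± 11.5 CPM (SD, n = 2) gave a ratio of 1.83 and a log2 fold change of 0.87 with a standard error of 0.24 (adjusted p = 0.125 in edgeR). The value was 0.64 without ADC/cmLumiOpto sample 2, with an unadjusted p in edgeR of 0.0524 in place of 0.00851, and 0.68 without saline sample 2.

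Lrrc32, the gene of GARP on regulatory T cells and platelets, was at 12.69 and 10.11 CPM in saline and at 6.121 and 10.14 CPM after treatment, from 108 to 208 counts. The groups overlapped, since ADC/cmLumiOpto sample 2 was level with saline sample 2. Means of 11.4 ± 1.82 CPM (SD, n = 2) and 8.132 ± 2.84 CPM (SD, n = 2) gave a log2 fold change of -0.49 with a standard error of 0.34 (adjusted p = 0.42 in edgeR). It was -0.16 without ADC/cmLumiOpto sample 1 and -0.90 without ADC/cmLumiOpto sample 2, so that the size rests on which treated sample is used.

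Ordered by mean CPM per kilobase in the saline group, Ltbp3 came first at 152 ± 6.25 (SD, n = 2), followed by Ltbp1 at 56.3 ± 15.4, Ltbp2 at 46.9 ± 3.18, Ltbp4 at 44.1 ± 6.45 and Tgfb3 at 37.2 ± 6.21 CPM per kilobase. The samples of neighbors from Ltbp1 to Tgfb3 overlapped, so their order is not settled. Below them, without overlap between neighbors, were Tgfb1 at 31.3 ± 0.184, Inhba at 23.7 ± 0.575, Nrros at 7.06 ± 1.54, Tgfb2 at 4.18 ± 0.238 and Lrrc32 at 2.43 ± 0.389 CPM per kilobase.

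After treatment Ltbp3 was again first, at 114 ± 6.52 CPM per kilobase (SD, n = 2). Ltbp2 at 37.7 ± 2.09, Tgfb3 at 35.9 ± 4.02 and Ltbp1 at 32.6 ± 2.64 came next, each overlapping its neighbor within these 3. Tgfb1 at 25 ± 1.8 and Ltbp4 at 23.5 ± 0.214 CPM per kilobase did not overlap. Nrros at 12.9 ± 2.75 and Inhba at 12.5 ± 2.19 overlapped each other, as did Tgfb2 at 2.0 ± 0.261 and Lrrc32 at 1.73 ± 0.607 CPM per kilobase.

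The genes most like Ltbp4 over the 4 samples, among 10768 protein-coding genes with a mean count of at least 100, were Kat6b, a histone acetyltransferase gene, Nedd4, a ubiquitin ligase gene, and Zfp462, a zinc finger gene. Their root mean square distances from Ltbp4 in centered log2 CPM were 0.0257, 0.0376 and 0.038. They had log2 fold changes of -0.86, -0.85 and -0.91, a likeness to Ltbp4 that follows from how they were picked. All 3 had the adjusted p of Ltbp4, 0.116 in edgeR, which was the smallest over all genes tested and was shared by many of them. Nedd4 was at 1020.2 and 1200.5 CPM in saline and at 614.97 and 619.89 CPM after treatment. Its high saline sample 2 and nearly equal treated samples are the pattern of Ltbp4 by which it was picked.

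Other genes of the TGF-β pathway and of the related activin and bone morphogenetic protein pathways were followed through 6 lists with 76 genes. Of these, 71 were tested, and the lists were chosen with earlier results of these data known. Lower values were found for 52 and higher values for 19, an unadjusted p under 0.05 for 31 lower and 7 higher genes, against 12.2% and 11.0% of all genes tested in these directions, so that the higher genes of the lists were near the background share, and 0 passed the adjusted threshold in edgeR's quasi-likelihood test. Their median log2 fold change was -0.40, against 0.03 over all genes. Without saline sample 2 only 1 saline sample remained, and fewer genes had an unadjusted p under 0.05 in edgeR, both in the lists and among all genes tested.

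Of the 11 receptor genes tested, 7 were lower and 4 higher, and the median log2 fold change was -0.36. The list holds receptors of activin and bone morphogenetic proteins beside those of TGF-β. An unadjusted p under 0.05 in edgeR was found for 5 lower and 1 higher, against 12.2% and 11.0% of all genes tested. The 5 lower were Tgfbr2, Tgfbr3 and the activin or bone morphogenetic protein receptors Acvr1, Acvr2b and Bmpr1a. The latter 3 were named after their values were seen. Tgfbr2, the ligand-binding receptor kinase, was at 309.3 and 332.5 CPM in saline and 222.7 and 214.5 CPM after treatment (log2 fold change -0.55, standard error 0.15, adjusted p = 0.127 in edgeR), a ratio that moved to -0.35 on the log2 scale with the length trend removed. Tgfbr3, the co-receptor betaglycan that presents TGF-β2, was at 83.27 and 104.9 CPM in saline and at 53.27 and 65.3 CPM after treatment (log2 fold change -0.67, standard error 0.20, adjusted p = 0.139 in edgeR). Both groups of samples were separate for each. Tgfbr1, the signaling receptor kinase, overlapped, at 130.5 and 150.6 against 161.7 and 105.7 CPM. The higher receptor gene with an unadjusted p under 0.05 was Acvrl1, the endothelial receptor ALK1, with counts of 825 and 354 in saline and 1108 and 1994 after treatment. Tgfbr1 and Acvrl1 were named after their values were seen.

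Among 12 genes for activators of latent TGF-β, 10 were lower and 2 higher, with a median log2 fold change of -0.40. Of these, 6 lower and 1 higher had an unadjusted p under 0.05 in edgeR, against 12.2% and 11.0% of all genes tested. Mmp2, a gelatinase that can cut latent TGF-β, was at 179.9 and 116.8 CPM in saline and at 38.71 and 42.82 CPM after treatment (log2 fold change -1.86, standard error 0.24, adjusted p = 0.116 in edgeR). Thbs1, thrombospondin-1, which can activate the latent complex, was at 639.8 and 859.5 CPM in saline and at 301.5 and 418 CPM after treatment (log2 fold change -1.06, standard error 0.24, adjusted p = 0.116 in edgeR). All of these treated samples were below the saline samples. Of the 6 integrin subunit genes, 5 were lower and 1 higher. Itgav, the αV subunit shared by integrins that activate latent TGF-β, had the smallest p of the 6, at 211.6 and 230 CPM in saline and 147 and 151.7 CPM after treatment (log2 fold change -0.57, adjusted p = 0.127 in edgeR). Itgb8 was low, with 69 and 70 counts in saline and 40 and 44 after treatment. Itgb6, an epithelial subunit and the higher gene, had 142 and 45 counts in saline and 324 and 237 after treatment, in the order of the alveolar marker sums given above. These 3 were named after their values were seen, and none passed the adjusted threshold.

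The 12 scaffold genes, for the fibers that hold the LTBP proteins, were divided, with 8 lower and 4 higher and a median log2 fold change of -0.12. An unadjusted p under 0.05 in edgeR was found for 4 lower and 3 higher, against 12.2% and 11.0% of all genes tested. Eln, elastin, was at 726.9 and 505.7 CPM in saline and at 306.4 and 266.4 CPM after treatment (log2 fold change -1.11, standard error 0.22, adjusted p = 0.116 in edgeR). Fbn2, a fibrillin gene, was low, at 3.813 and 4.112 CPM in saline and 0.7368 and 0.5364 CPM after treatment, with the same adjusted p. The lower genes with an unadjusted p under 0.05 also included Fn1, fibronectin, and Fbn1, a fibrillin gene. Fn1 was at 11320 and 12020 CPM in saline and 7032 and 6776 CPM after treatment. Fbn1 was at 171.8 and 129.7 CPM in saline and 86.94 and 60.66 CPM after treatment. Their log2 fold changes were -0.76 and -1.03 (adjusted p = 0.123 and 0.121 in edgeR). The 3 higher genes with an unadjusted p under 0.05, Mfap4, Fbln5 and Adamtsl2, had log2 fold changes of 1.44, 1.00 and 1.14. Fn1, Fbn1 and the 3 higher genes were named after their values were seen.

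Activin and inhibin subunits and antagonists were tested for 8 of 12 genes, 6 lower and 2 higher, with a median log2 fold change of -0.43. Of these, 4 lower (Fst, Grem1, Dcn and Bgn) and 0 higher had an unadjusted p under 0.05 in edgeR, against 12.2% and 11.0% of all genes tested. Dcn and Bgn encode matrix proteoglycans, not activin or inhibin subunits, and were named after their values were seen. Fst, follistatin, which binds activin, was at 38.88 and 52.44 CPM in saline and 26.35 and 28.92 CPM after treatment (log2 fold change -0.72, standard error 0.21, adjusted p = 0.132 in edgeR). The activin antagonist and its ligand gene Inhba were thus both lower in both treated samples. Inhbb, another β subunit gene, named after its values were seen, overlapped between groups, at 40.57 and 33.84 against 34.12 and 40.91 CPM. Grem1, an antagonist of bone morphogenetic proteins, was at 3.438 and 10.85 CPM in saline and 2.494 and 1.609 CPM after treatment (log2 fold change -1.80, standard error 0.61, adjusted p = 0.162 in edgeR), and the log2 fold change was -0.73 without saline sample 2.

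Of 12 genes for SMAD proteins and their regulators, 11 were lower and 1 was higher, with a median log2 fold change of -0.48. An unadjusted p under 0.05 in edgeR was found for 6 lower and 0 higher, against 12.2% and 11.0% of all genes tested. Smad1, which carries bone morphogenetic protein signals, was at 85.77 and 104 CPM in saline and 44.89 and 53.2 CPM after treatment (log2 fold change -0.95, standard error 0.19, adjusted p = 0.116 in edgeR), and Smad3, the TGF-β and activin effector, had a log2 fold change of -1.23 with the same adjusted p. Smad2, the other effector, named after its values were seen, was at 56.95 and 65.99 CPM in saline and 49.82 and 50.96 CPM after treatment, a log2 fold change of -0.29 with an adjusted p of 0.328 in edgeR. All 3 were lower in both treated samples, an order found in 28.8% of all genes tested, and Smad2 differed least.

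Among 16 TGF-β response genes, 10 were lower and 6 higher, 6 and 2 with an unadjusted p under 0.05 (12.2% and 11.0% over all genes tested), with a median log2 fold change of -0.30. Pmepa1, an inhibitor of SMAD signaling that TGF-β induces, was at 305.1 and 265.6 CPM in saline and at 176.7 and 128.2 CPM after treatment (log2 fold change -0.91, standard error 0.21, adjusted p = 0.117 in edgeR). Col1a1, type I collagen, also made by fibroblasts apart from TGF-β, had a log2 fold change of -2.02 with a standard error of 0.24 (adjusted p = 0.116 in edgeR). The 2 higher genes with an unadjusted p under 0.05 were Id1 and Id3, targets of bone morphogenetic protein signaling, at log2 fold changes of 0.66 and 0.93. Their number is near the share of all genes in that direction, and they were named after their values were seen.

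**Figure D4:**
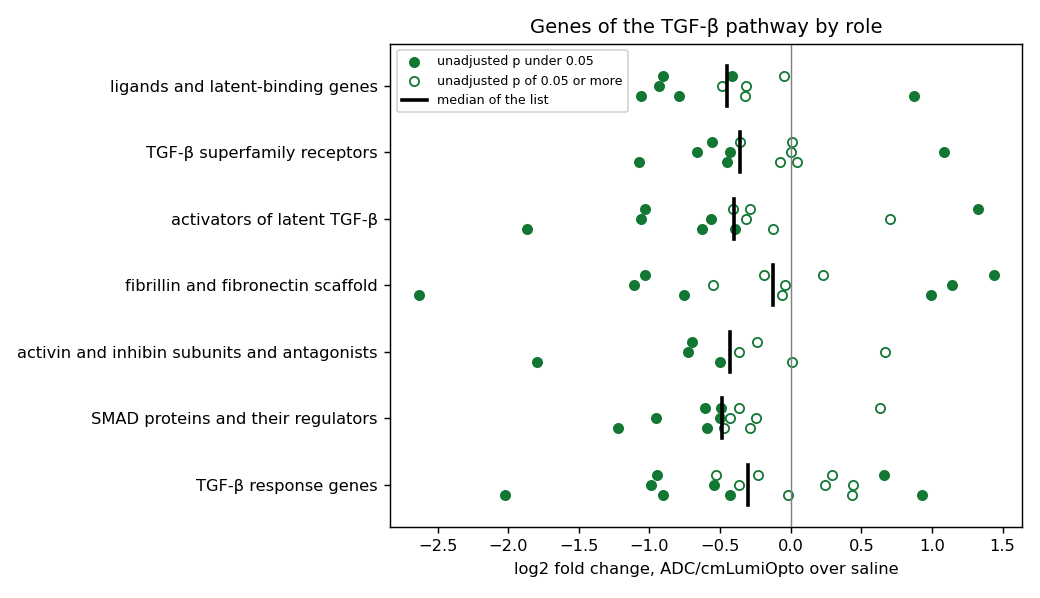
Log2 fold change (ADC/cmLumiOpto over saline) of every tested gene in the 10-gene set and the 6 pathway lists, one row per list; filled points have an unadjusted p under 0.05 in edgeR, open points do not, and the black bar is the median of the list. The 7 medians lie between -0.48 and -0.12, and every list holds genes on both sides of 0.

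Markers of several cell types moved with these values. The 6 fibroblast markers summed to 1649 and 1155 CPM in saline and to 722.3 and 593.6 CPM after treatment. Of the 6, 5 were lower, 4 of them with an unadjusted p under 0.05 in edgeR, against 12.2% of all genes tested. The LTBP genes, Tgfb2 and Inhba were thus lower in the samples with the lower fibroblast sums. The 4 smooth muscle markers summed to 50.32 and 71.72 CPM in saline and to 54.53 and 42.81 CPM after treatment and overlapped. The genes listed for carcinoma, at 2948 and 3310 CPM in saline and 2917 and 2846 CPM after treatment, lay within a narrow range, with 3 genes lower and 3 higher. Krt8 and Krt18 made up most of this sum. The list was not shown to tell tumor cells from lung epithelium, so that tumor content was not tested. The order of the 2 saline samples differed between genes and some markers: the fibroblast sum was higher in saline sample 1, and Ltbp1 and Ltbp4 were higher in saline sample 2. Col1a2 made up most of that sum, at 1246 and 766.6 CPM in saline. Pdgfra, at 211.1 and 240.2 CPM, and by little Thy1 were higher in saline sample 2, whereas Pdgfrb, Lum and Pdpn were higher in saline sample 1. Whether fibroblast content had a part in the member values was not tested.

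For Nrros, the 6 macrophage markers summed to 1179 and 1066 CPM in saline and to 1283 and 997.8 CPM after treatment, 3 lower and 3 higher, so that the sums overlapped between groups. The 3 leukocyte markers summed to 534.8 and 330.5 CPM in saline and to 631.3 and 848.1 CPM after treatment. These sums have the same order over the samples as Nrros, lowest in saline sample 2 and highest in ADC/cmLumiOpto sample 2. Ptprc and Coro1a have this order too, but Laptm5 does not. Laptm5 was at 324.9 and 211.1 CPM in saline and at 311.3 and 305.2 CPM after treatment, and overlapped between groups. The 4 neutrophil markers were also highest in ADC/cmLumiOpto sample 2. Whether leukocyte content had a part in the Nrros values was not tested.

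For Lrrc32, the 4 regulatory T cell markers summed to 18.64 and 18.94 CPM in saline and to 17.12 and 12.68 CPM after treatment, with 1 of 4 genes lower (Ikzf2, with 177 and 214 counts in saline and 100 and 170 after treatment) and 3 higher. Foxp3, the defining factor, had 17 and 4 counts in saline and 36 and 12 after treatment. The 5 platelet and megakaryocyte markers summed to 12.63 and 26.42 CPM in saline and to 22.67 and 29.65 CPM after treatment, with Gp1bb at 0 in all 4 samples. The 4 tested genes were higher, 2 of them with an unadjusted p under 0.05 in edgeR, against 11.0% of all genes tested. Neither sum has the order of Lrrc32, which was highest in saline sample 1 and lowest in ADC/cmLumiOpto sample 1. Whether regulatory T cell or platelet content had a part in the Lrrc32 values was not tested. The 5 endothelial markers summed to between 342.8 and 628.4 CPM, the 3 mesothelial markers to between 125.2 and 216.7 CPM, the 4 T cell markers to between 5.662 and 46.14 CPM, the 3 airway markers to between 79.47 and 6134 CPM and the 2 hemoglobin genes to between 306.8 and 1773 CPM. Their part in the values of the members was not tested.

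**Figure D5:**
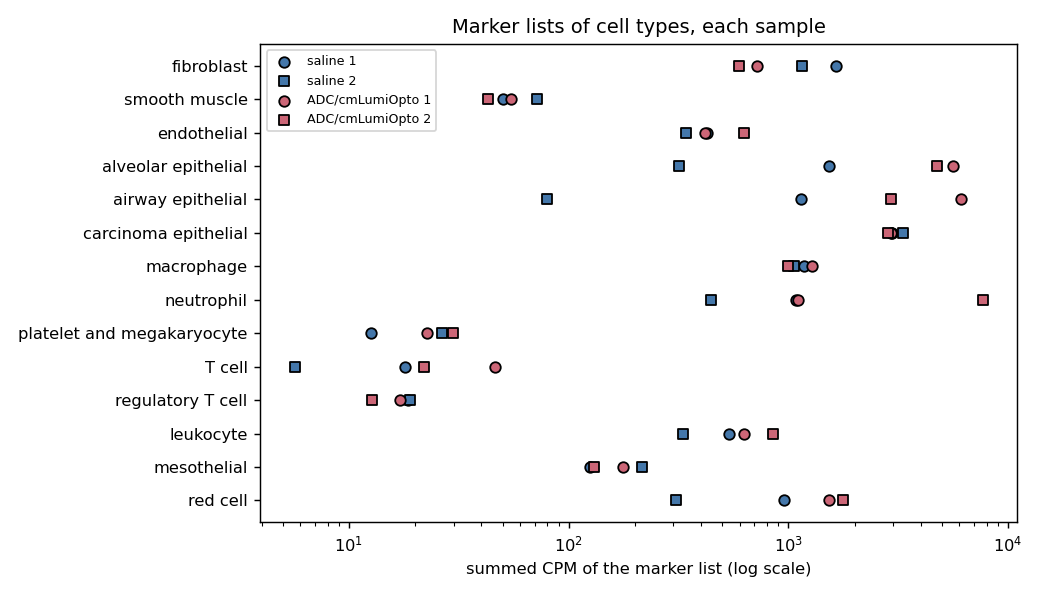
Summed CPM (log axis) of each of 14 cell type marker lists in every sample; blue marks saline and red ADC/cmLumiOpto, circles sample 1 and squares sample 2. The fibroblast sums are lower in both treated samples, the alveolar and airway sums are higher in both, and the neutrophil sum is highest in ADC/cmLumiOpto sample 2.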

How the data were processed

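RNA sequencing of 2 saline and 2 ADC/cmLumiOpto samples was analyzed, and the study's methods give 4 per group. The values the authors deposited are raw counts, whole reads per gene for 56748 genes. Per the methods, reads were aligned with HISAT2 to GRCm38, whereas the submitters' processing notes name HISAT2, HISAT, TopHat2 and mm39, and the counting program is not given in the sources used here. Of 52073 identifiers shared with the GENCODE annotation of GRCm38, 52034 shared the chromosome and 1435 both ends. Group membership came from the labels, where replicate numbers only name samples, and p-values measure the spread between these samples, described in the methods as biological samples.

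The counts were fitted by edgeR 4.0.16 under R 4.3.3, after filterByExpr (minimum count 10, minimum total 15) and TMM normalization (factors 0.973 to 1.04), and glmQLFit and glmQLFTest gave the comparison, with Benjamini-Hochberg adjustment at 0.05 over all 15320 genes. Fold changes used a prior count of 0.125. CPM per kilobase used the gene length in the table. Total counts ranged from 15263375 to 19675436, and the members had from 108 (Lrrc32) to 21403 (Ltbp3) counts per sample, which sets their counting error but not the spread between mice. Alternatives were DESeq2 1.42.0, the exact test, library size alone, upper-quartile scaling, no filter, at least 10 counts in every sample, protein-coding genes only, a replicate block, removal of the length trend (lowess span 0.3) and each sample left out. The procedure was tested on simulated data.

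The genes named were all 10 members, the 2 genes of each pathway list with the smallest p, and the 3 protein-coding genes nearest to the member with the smallest p, and pathway genes named outside this rule are marked in the text. The members and lists were chosen with earlier results of these data known. One result is not reported here.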

Additional observations from a re-analysis of the deposited data

How the results depend on the processing

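All 10 genes kept the direction of their log2 fold change under each alternative, except Tgfb3, whose value of -0.05 was 0.04 with upper-quartile scaling and lay between -0.19 and 0.13 when samples were left out in turn. The number of members with an unadjusted p under 0.05 was 6, and between 4 and 6 under the alternatives. No gene passed the adjusted threshold in edgeR's quasi-likelihood test, where 3553 had an unadjusted p under 0.05. The count over all genes was 1353 with DESeq2, 1170 with the exact test, 2259 with no filter beyond 1 count, and 0 to 206 with each sample left out (206 without saline sample 1). With a replicate block it was 607, among them Tgfb2, Inhba and Ltbp4, although same-numbered samples share no animal and their deviations correlated at 0.0985. Of the pathway list genes, 38 had an unadjusted p under 0.05, and 16 to 32 with each sample left out. The adjusted p of Ltbp4 ranged from 0.000343 to 0.46 over its alternatives. The cause of these differences was not tested. With a sample left out, the lone sample of its group was assumed to vary like the other group. With no filter and with upper-quartile scaling, the median log2 fold change of all genes was 0.10 and 0.11. At 108 to 208 counts, Lrrc32 is the member whose value depth limits most.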
